A study of Oryza sativa Indica Group with 45 samples.

Results

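The genes described here are the vacuolar calcium exchangers of rice (CAX1a, CAX1b, CAX1c, CAX2, CAX3 and CAX4) and the calcium pump ACA8. A gene was taken where its RefSeq symbol or synonym, with or without the prefix Os, matched 1 of these 7 names and the array annotation paired it with a probe set. That gave 5 genes and 6 probe sets, of 17905 genes and 57381 probe sets in all. CAX1a, CAX1b, CAX2 and CAX3 have 1 probe set each and ACA8 has 2, while CAX1c and CAX4 were not analysed here. The genes were put together with earlier results of these data known: CAX1b had been picked for its level in young leaves of the hybrid, and a rebuilt version of that naming rule also picks ACA8 in flag leaves. In those comparisons the values are a description and carry no test.

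Transcript levels were measured on Affymetrix Rice Genome Arrays in the indica rice hybrid MRP5401 and its parents, the female PMS80 (B line, here the B parent) and the male PR319 (R line, here the R parent). Leaves and roots came from seedlings of 14 days (young leaf, young root) and from plants of 40 to 60 days (mature leaf, mature root), and flag leaves from plants of 90 days. Each of the 15 groups has 3 arrays, labelled as biological replicates, and no treatment separates the groups. The labels describe hydroponic culture of seedlings and give no separate culture for the older plants, so age and growing conditions cannot be told apart.

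CAX proteins exchange calcium for protons across the tonoplast and load the vacuole with calcium, using the proton gradient that vacuolar proton pumps build. In plants they are known for calcium storage in leaf cells and for ending cytosolic calcium signals. ACA proteins are P-type ATPases that spend ATP to move calcium out of the cytosol, and are held back by a terminal domain until calmodulin binds to it. Calmodulins, calmodulin-like proteins (CML) and calcineurin B-like proteins (CBL) sense the calcium signals that exchangers and pumps shape.

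All values are log2 of the deposited intensity, errors of group means are SD (n = 3) and errors of differences are SE. Differences were tested with limma over all 45 arrays, and p-values were adjusted over the 24130 probe sets tested. A group mean under 5 counts as near background, and a difference from such a group is also given as a bound, with that mean set at 5. A tissue sample mixes cell types, so fewer cells of a type and less RNA per cell cannot be told apart.

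Some arrays stood apart from the rest. The 3 young leaf arrays of the R parent had the highest group mean of spike-in signal, 12.80, while the B parent had 11.74 and the hybrid 10.87. Their limma array weights were 0.23 to 0.49. Young root array 1 of the R parent had a weight of 0.3. Mature roots of the R parent had a 3' index (3' minus 5' signal of control genes) of 1.59 on average, while the B parent had 3.71 and the hybrid 3.63. The mature leaf spike-in signal was 12.34 in the B parent, 11.31 in the hybrid and 11.35 in the R parent. Of 31 leaf marker genes matched, 10 had a probe set and 9 were tested; their mean was 13.76 to 14.42 in the leaf groups, 10.38 to 12.03 in young roots and 3.60 to 4.42 in mature roots. Of 16 root marker genes, 14 had a probe set and 11 were tested, with means of 6.87 to 8.80 in roots and 5.07 to 5.74 in leaves.

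**Figure D1:**
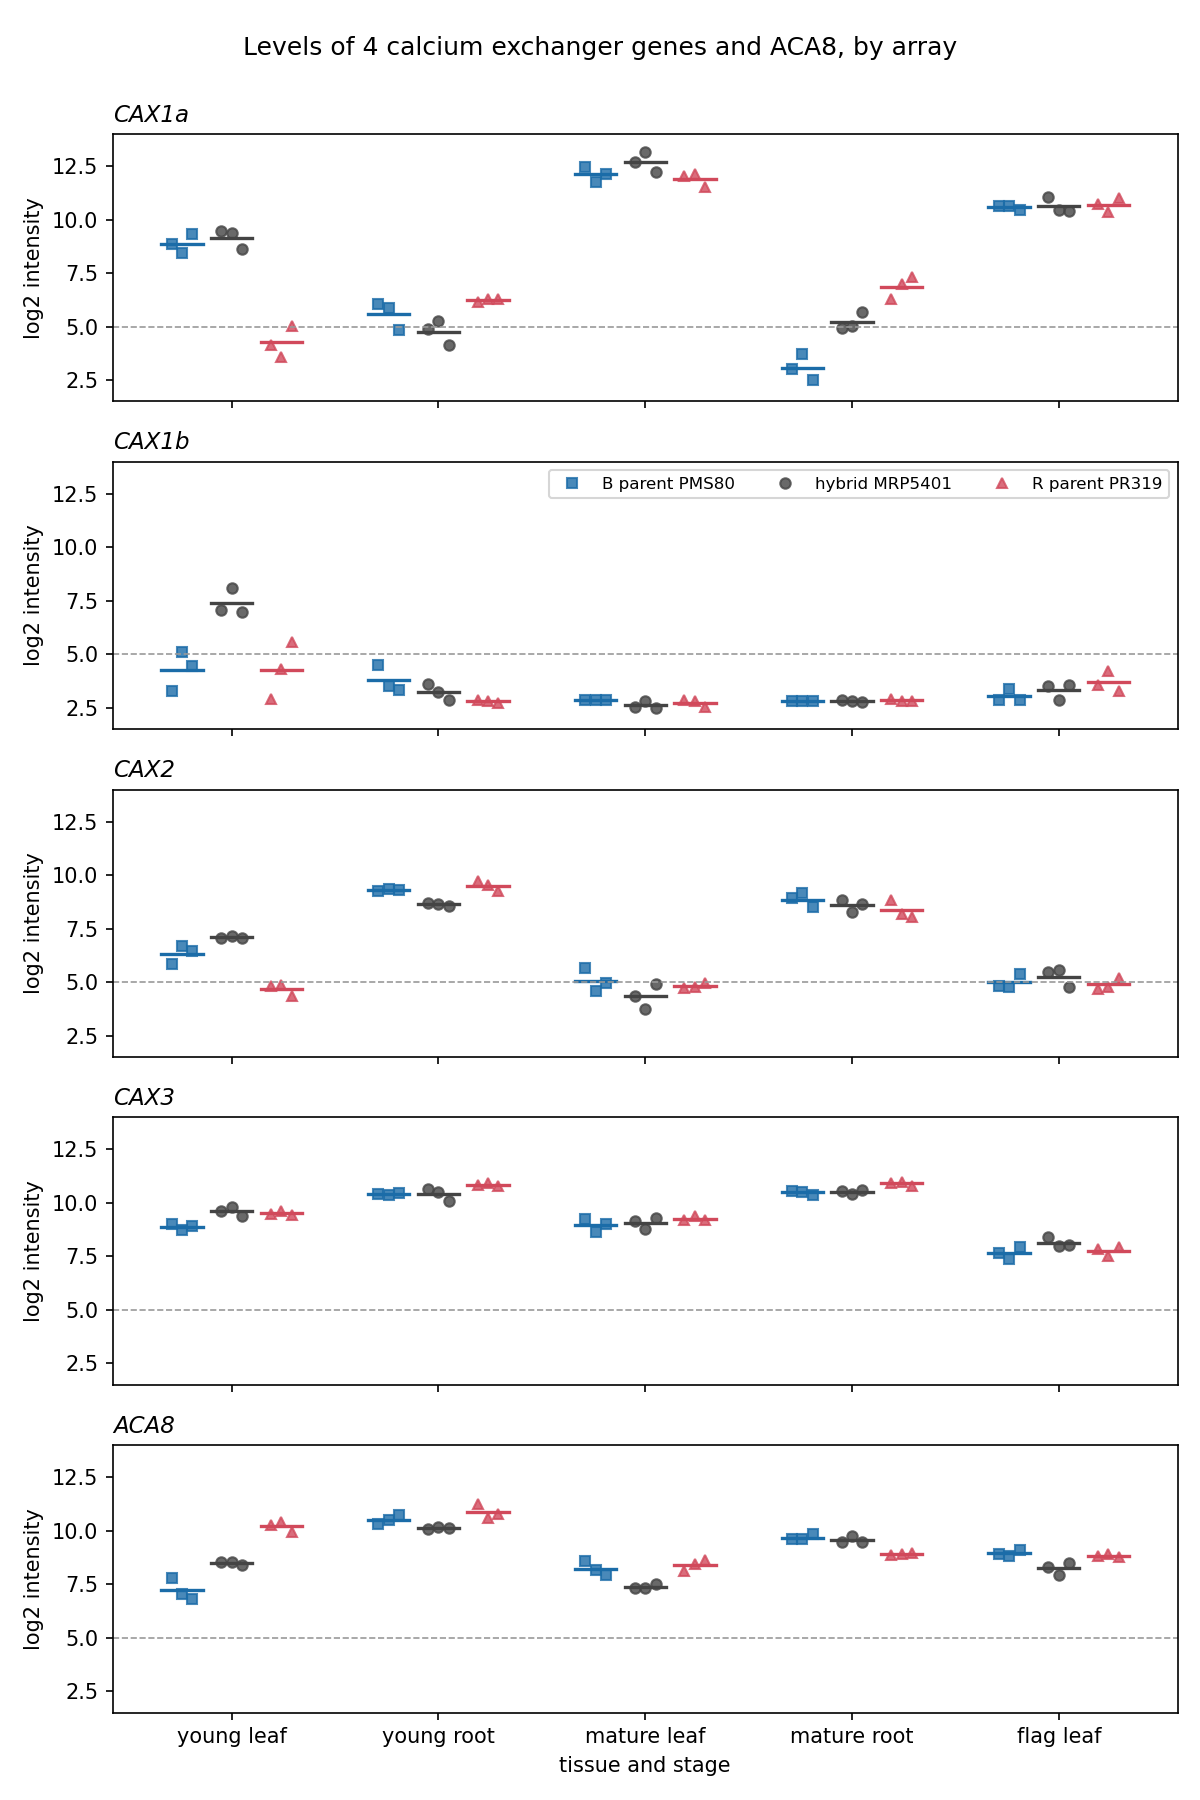
Level of each gene on every array, as log2 intensity on the vertical axis, by tissue and stage on the horizontal axis; points are arrays, short bars are group means of 3 arrays, and the dashed line marks 5. CAX1a spans 3.08 to 12.69 between group means, CAX1b is over 5 in young leaves of the hybrid alone, and CAX2, CAX3 and ACA8 are high in roots.

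Between leaves and roots the exchangers went opposite ways. CAX1a was higher in leaves, except in the R parent at 14 days, while CAX2, CAX3 and ACA8 were higher in roots, at 14 days and at 40 to 60 days. In young leaf minus young root, 4 genes were tested, of which 1 was higher and 3 were lower, where 81.3% of all probe sets were called, 28.1% higher and 53.2% lower. In mature leaf minus mature root, 1 of 5 was higher and 3 were lower, where 86.4% were called, 35.2% higher and 51.3% lower. CAX1b, the gene not called there, was near background in both tissues and could give no order. Since most probe sets on the array differ between leaf and root, the count of called genes is near the background, and the sizes carry the description.

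CAX1a had the widest range of the 5 genes. In mature leaves its arrays read 12.44, 11.75 and 12.15 in the B parent, 12.70, 13.15 and 12.23 in the hybrid, and 12.03, 12.15 and 11.51 in the R parent. In mature roots they read 3.03, 3.71 and 2.51 in the B parent, 4.95, 5.01 and 5.68 in the hybrid, and 6.27, 7.0 and 7.34 in the R parent. No leaf array overlapped a root array. The difference averaged over the genotypes was 7.18 ± 0.21 (limma, adjusted p = 1.63e-26), with a bound of 6.54, or at least 93.1-fold.

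The leaf level of CAX1a differed between the stages sampled. It was higher in mature than in young leaves by 4.81 ± 0.21 (bound 4.56, at least 23.6-fold; limma, adjusted p = 3.41e-20), and higher in every genotype, by 3.24 in the B parent, 3.54 in the hybrid and at least 6.89 in the R parent. In flag leaves it fell by 1.6 ± 0.21 from mature leaves (limma, adjusted p = 3.11e-08). Its flag leaf means were 10.57 ± 0.11 in the B parent, 10.63 ± 0.36 in the hybrid and 10.69 ± 0.33 in the R parent. With the 3' index as a covariate flag minus mature leaf was -0.90 (limma, adjusted p = 0.0379). Group means of that index were 2.21 to 2.59 in mature leaves and 3.47 to 4.13 in flag leaves. By group mean of CAX1a, the order of the 9 leaf groups was mature, flag and young leaf. The genotypes overlapped within flag leaves. In mature leaves the hybrid arrays overlapped those of the B parent and lay above those of the R parent, by 0.80 on average, which did not pass (limma, adjusted p = 0.241). Mature minus young root gave -0.47 ± 0.21 (limma, adjusted p = 0.0414), a call that ends under quantile normalization (-0.08, adjusted p = 0.733) and when spike-in signal is a covariate (-0.05, adjusted p = 0.884). That average covered -2.50 in the B parent (bound -0.58), with every mature array below every young one, 0.45 in the hybrid (bound 0.21) and 0.62 in the R parent, with overlapping arrays in both.

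In young leaves CAX1a separated the R parent from the other genotypes. The arrays read 8.84, 8.45 and 9.34 in the B parent, 9.46, 9.37 and 8.61 in the hybrid, and 4.16, 3.60 and 5.01 in the R parent. The B parent and the hybrid overlapped, and the R parent lay below both, near background. The R parent was lower than the B parent by at least 3.87 (at least 14.6-fold; fitted difference -4.62 ± 0.37; limma, adjusted p = 9.54e-13). The hybrid was higher than the R parent by at least 4.15 (at least 17.8-fold; fitted 4.89 ± 0.37; limma, adjusted p = 4.11e-13), and hybrid minus B parent was 0.27 ± 0.37 (limma, adjusted p = 0.642). These R parent arrays are the ones with the high spike-in signal; with that signal as a covariate R minus B was -3.90 (adjusted p = 1.95e-08) and hybrid minus R was 3.59 (adjusted p = 9.47e-05). Leaving out single arrays gave -5.00 to -4.29 and 4.56 to 5.27.

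The leaf-over-root difference of CAX1a at 14 days was not shared by the genotypes. Young leaf minus young root was 3.29 in the B parent and 4.39 in the hybrid (bound 4.15), with every leaf array above every root array. In the R parent it was -1.99 (bound -1.25), with every leaf array below every root array. The average over genotypes, 1.90 ± 0.21 (limma, adjusted p = 4.61e-10), hides this split, and the difference between the genotypes in this contrast was not tested.

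In roots the genotypes took another order. Mature root CAX1a was near background in the B parent at 3.08 ± 0.60, and read 5.21 ± 0.41 in the hybrid and 6.87 ± 0.54 in the R parent, with no overlap between the 3 genotypes. R minus B was at least 1.87 (fitted 3.79 ± 0.37; limma, adjusted p = 8.89e-11) and hybrid minus B at least 0.21 (fitted 2.13 ± 0.37; limma, adjusted p = 2.06e-05). The hybrid was lower than the R parent by 1.66 ± 0.37 (limma, adjusted p = 0.000443). The mature root arrays of the R parent also differ in 3' index: with it as a covariate R minus B was 2.72 (adjusted p = 0.000331), while hybrid minus R was -0.63 (adjusted p = 0.525). Under the spike-in covariate hybrid minus R was -1.07 (adjusted p = 0.0581).

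In young roots CAX1a arrays read 6.06, 5.88 and 4.82 in the B parent, 4.89, 5.26 and 4.12 in the hybrid, and 6.13, 6.30 and 6.30 in the R parent. The hybrid overlapped the B parent and lay wholly below the R parent. Hybrid minus R parent was lower by at least 1.25 (fitted -1.49 ± 0.37; limma, adjusted p = 0.00268).

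CAX1b, by its name a further exchanger of the CAX1 type, was over background in 1 group of 15. In young leaves of the hybrid its arrays read 7.06, 8.12 and 6.98. The B parent arrays of that stage read 3.28, 5.10 and 4.45, and those of the R parent 2.90, 4.30 and 5.59. All 3 hybrid arrays were above all 6 parent arrays. The hybrid was at least 2.39 (at least 5.24-fold) above each parent, with fitted differences of 3.11 ± 0.41 from the B parent and 3.12 ± 0.41 from the R parent. CAX1b was picked on these arrays, so no test is given. In the 12 groups of other tissues and ages its means were 2.62 to 3.78, all near background and without an order.

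CAX2 was a root transcript in all genotypes. Its root means were 8.64 to 9.51 at 14 days and 8.35 to 8.86 at 40 to 60 days, while leaf means ran from 4.33 to 7.10, and no leaf array overlapped a root array. Young leaf minus young root was -3.12 ± 0.16 (bound -3.01, at least 8.06-fold lower; limma, adjusted p = 3.1e-19). Mature leaf minus mature root was -3.86 ± 0.16 (bound -3.58, at least 12-fold lower; limma, adjusted p = 2.76e-22). With age CAX2 fell by 1.29 ± 0.16 in leaves (limma, adjusted p = 6.5e-09), an average of -1.26 in the B parent, -2.76 in the hybrid (bound -2.10) and 0.16 in the R parent. The hybrid was near background in mature leaves and the R parent at both ages. It fell by 0.55 ± 0.16 in roots (limma, adjusted p = 0.00196), and flag minus mature leaf was 0.31 (limma, adjusted p = 0.0831).

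In young leaves CAX2 separated all 3 genotypes. The arrays read 5.84, 6.68 and 6.47 in the B parent, 7.04, 7.17 and 7.08 in the hybrid, and 4.80, 4.85 and 4.33 in the R parent. No genotype overlapped another, and the order was hybrid, B parent, R parent. The R parent was at least 1.33 below the B parent (fitted -1.67 ± 0.27; limma, adjusted p = 4.02e-06) and at least 2.10 below the hybrid (fitted hybrid minus R 2.44 ± 0.27, at least 4.29-fold; limma, adjusted p = 3.17e-09). The hybrid was above the B parent by 0.77 ± 0.27 (limma, adjusted p = 0.0243) and so above both parents, as were 15.3% of all probe sets. That step over the B parent was not past the threshold after quantile normalization (0.51, adjusted p = 0.128), without B parent array 1 (0.52, adjusted p = 0.18) or without hybrid array 2 (0.73, adjusted p = 0.0723).

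In young roots CAX2 arrays read 9.26, 9.33 and 9.32 in the B parent, 8.70, 8.67 and 8.54 in the hybrid, and 9.72, 9.54 and 9.28 in the R parent. The hybrid lay below all parent arrays, and the parents overlapped. Hybrid minus R parent was -0.88 ± 0.27 (limma, adjusted p = 0.0174) and hybrid minus B parent -0.66 (limma, adjusted p = 0.0694), which did not pass. The first was also not past the threshold with the spike-in covariate (-0.75, adjusted p = 0.0689). The same held without R parent array 1 (-0.77, adjusted p = 0.0791) or without hybrid array 3 (-0.83, adjusted p = 0.0587).

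CAX3 was well above background in all 15 groups and had the narrowest range of group means. Root means were 10.42 to 10.91, young and mature leaf means 8.89 to 9.60, and flag leaf means 7.66 to 8.15, in steps that did not overlap. Leaf was lower than root by 1.23 ± 0.10 at 14 days (limma, adjusted p = 7.58e-14) and by 1.54 ± 0.10 at 40 to 60 days (limma, adjusted p = 8.66e-17). Flag leaves were lower than mature leaves by 1.24 ± 0.10 (limma, adjusted p = 1.56e-13). Mature minus young root was 0.08 (limma, adjusted p = 0.446), and mature minus young leaf was -0.24 ± 0.10 (limma, adjusted p = 0.0314). The latter call is lost with array weights (adjusted p = 0.0943), the spike-in covariate (adjusted p = 0.0523) or the 3' index covariate (adjusted p = 0.305). It is also lost in 7 of 18 limma fits with 1 array left out.

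Between genotypes CAX3 moved by less than 1 log2 unit. In young leaves its arrays read 9.02, 8.73 and 8.94 in the B parent, 9.62, 9.80 and 9.38 in the hybrid, and 9.49, 9.63 and 9.42 in the R parent. The B parent lay below both others, which overlapped. Hybrid minus B was 0.71 ± 0.17 (limma, adjusted p = 0.00101) and R minus B was 0.62 ± 0.17 (limma, adjusted p = 0.00243), the latter 0.47 with the spike-in covariate (adjusted p = 0.105). R minus B was 0.43 in young roots (limma, adjusted p = 0.0485) and 0.42 in mature roots (limma, adjusted p = 0.0283). The young root call is lost in 6 of 6 limma fits with 1 array left out (adjusted p up to 0.131). The mature root call is lost in 3 of 6 such fits, and after quantile normalization (adjusted p = 0.208).

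The pump gene ACA8 set the genotypes apart in leaves. In young leaves its arrays read 7.77, 7.04 and 6.82 in the B parent, 8.52, 8.54 and 8.42 in the hybrid, and 10.27, 10.42 and 9.93 in the R parent. The genotypes did not overlap, and the order was R parent, hybrid, B parent. R minus B was 3.0 ± 0.20, or 7.99-fold (limma, adjusted p = 5.87e-15), and 2.57 once spike-in signal was a covariate (adjusted p = 1.04e-10). The hybrid was above the B parent by 1.29 ± 0.20 (limma, adjusted p = 2.9e-06) and below the R parent by 1.71 ± 0.20 (limma, adjusted p = 5.28e-09; -0.93 with the spike-in covariate, adjusted p = 0.0386). Its difference from the mid-parent, which averages the parental log2 means, was -0.21 (limma, adjusted p = 0.329). That holds on the log2 scale only. Geometric mean intensities were 148 in the B parent, 361 in the hybrid and 1180 in the R parent. A mid-parent taken on the linear scale lies higher, and the hybrid was further below it.

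In mature leaves ACA8 was lower in the hybrid than in either parent. The arrays read 8.57, 8.18 and 7.94 in the B parent, 7.33, 7.32 and 7.52 in the hybrid, and 8.11, 8.44 and 8.63 in the R parent. The parents overlapped, and all 3 hybrid arrays were below all 6 parent arrays. Hybrid minus B was -0.84 ± 0.20 (limma, adjusted p = 0.00353) and hybrid minus R was -1.0 ± 0.20 (limma, adjusted p = 0.00062), while 0.837% of all probe sets were called below both parents. With the spike-in signal, which was highest in the B parent, as a covariate, the first was -0.42 (adjusted p = 0.357) and the second -0.99 (adjusted p = 0.000229). The flag leaf arrays, on which ACA8 was picked, read 8.92, 8.80 and 9.09 in the B parent, 8.31, 7.93 and 8.47 in the hybrid, and 8.81, 8.92 and 8.76 in the R parent. There too the hybrid lay below all parent arrays, by 0.70 from the B parent and 0.59 from the R parent, as a description without a test.

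In roots ACA8 was higher than in leaves, by 1.86 ± 0.11 at 14 days (young leaf minus young root -1.86; limma, adjusted p = 7.15e-17) and 1.38 ± 0.11 at 40 to 60 days (mature leaf minus mature root -1.38; limma, adjusted p = 1.67e-13). The young leaf arrays of the R parent overlapped young root arrays of the other genotypes, but lay below its own. With age ACA8 fell in roots by 1.11 ± 0.11 (mature minus young root -1.11; limma, adjusted p = 6.67e-11). In leaves the average of mature minus young, -0.63 ± 0.11 (limma, adjusted p = 7.44e-06; -0.12 with the 3' index covariate, adjusted p = 0.676), covered 1.02 in the B parent, -1.11 in the hybrid and -1.81 in the R parent. All mature leaf arrays of the B parent were above its young leaf arrays, and those of the other genotypes were below theirs.

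Root differences of ACA8 between genotypes were under 1 log2 unit. In young roots its arrays read 10.31, 10.49 and 10.73 in the B parent, 10.07, 10.16 and 10.11 in the hybrid, and 11.25, 10.57 and 10.76 in the R parent. All hybrid arrays lay below all parent arrays, but hybrid minus B was -0.40 ± 0.20 (limma, adjusted p = 0.142), which did not pass. Hybrid minus R was -0.75 ± 0.20 (limma, adjusted p = 0.00466), and -0.55 without R parent array 1 (adjusted p = 0.0631). In mature roots the arrays read 9.59, 9.61 and 9.84 in the B parent, 9.46, 9.73 and 9.48 in the hybrid, and 8.85, 8.90 and 8.96 in the R parent, which lay below both others. R minus B was -0.78 ± 0.20 (limma, adjusted p = 0.000884) and hybrid minus R was 0.66 ± 0.20 (limma, adjusted p = 0.00717). With the 3' index as a covariate these became -0.07 (adjusted p = 0.879) and -0.03 (adjusted p = 0.972).

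The other ACA8 probe set gave no such picture. Its group means were 2.80 to 4.25, all near background, so the results on ACA8 rest on 1 of its 2 probe sets. ACA9 is a close relative of ACA8 in rice, and whether the probe set also reads ACA9 transcripts was not tested.

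**Figure D2:**
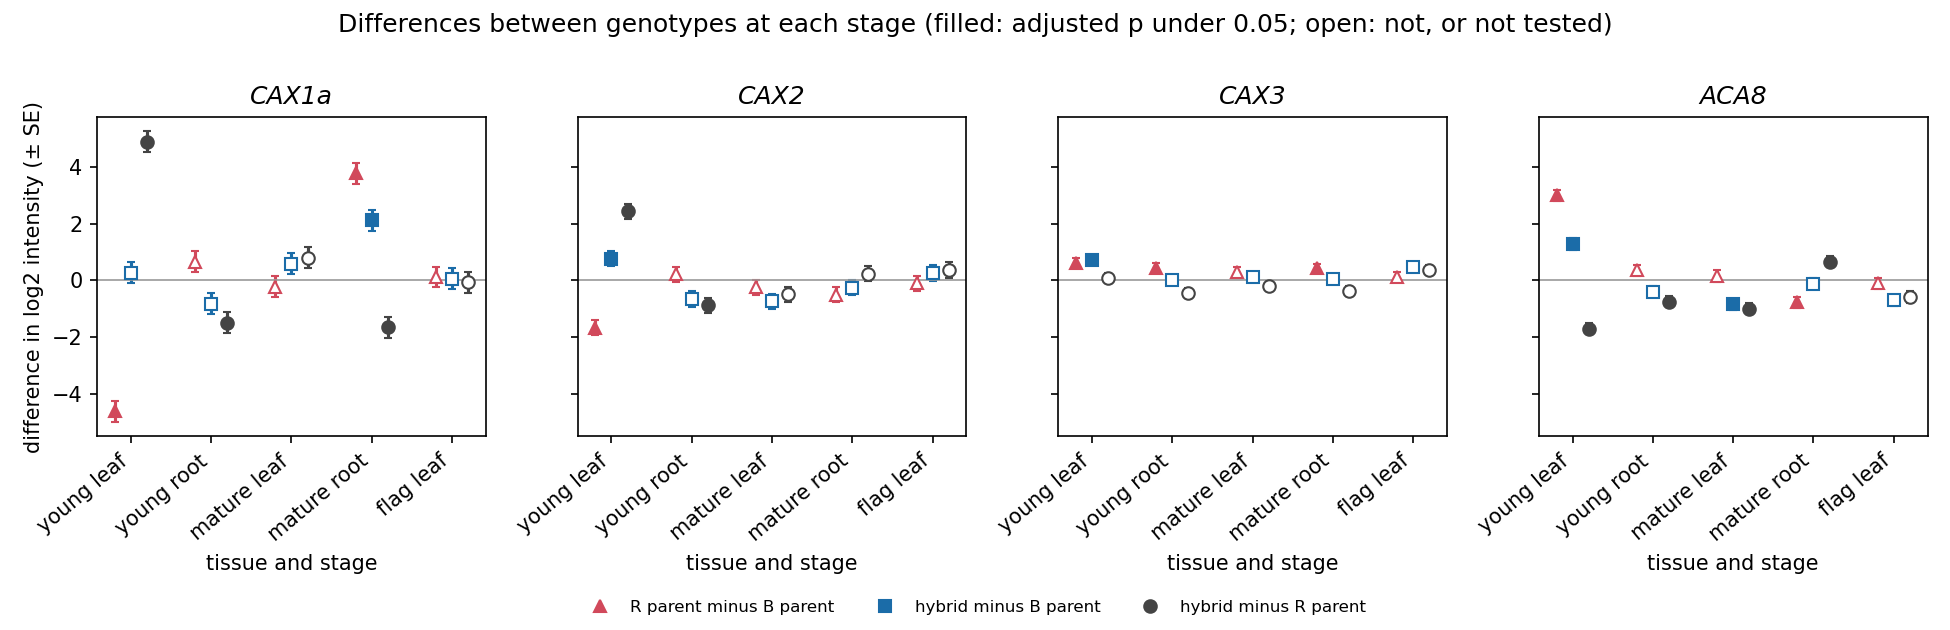
Differences between genotypes in log2 intensity, with SE bars, by tissue and stage for CAX1a, CAX2, CAX3 and ACA8; filled points passed the adjusted threshold, and the flag leaf hybrid points of ACA8 are open because they were not tested. In young leaves R parent minus B parent is -4.62 for CAX1a and -1.67 for CAX2 but 3.0 for ACA8.

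By number, the genotype calls were most frequent in young leaves, where large shares of all probe sets were called too. Whether the genes exceed those shares was not tested. R minus B was called for 4 of 5 genes in young leaves (2 higher, 2 lower), where 46.3% of probe sets were called, 17.3% higher and 29.0% lower. It was called for 1 of 5 in young roots, higher (28.6% of probe sets, 16.8% higher). In mature roots 2 of 5 were higher and 1 lower (58.9%, 27.7% higher and 31.3% lower). For 0 of 5 genes it was called in mature leaves (15.2%) and in flag leaves (12.7%), with 0 at an unadjusted p under 0.05 in limma in either. Here and below, every count out of 5, and out of 4 in flag leaves, includes CAX1b. It passed the level filter only through young leaves of the hybrid, so it could give no call with an order there. R minus B of CAX1b in young leaves and of ACA8 in flag leaves also reuses parent arrays by which they were picked.

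For the hybrid, 3 of the 4 genes tested were higher than the B parent in young leaves (36.4% of probe sets called, 24.1% higher). Against the R parent 2 of 4 were higher and 1 lower (51.4%, 36.7% higher and 14.7% lower). In young roots 0 of 5 differed from the B parent (25.7%; 3 at an unadjusted p under 0.05 in limma) and 3 of 5 were lower than the R parent (20.7%, 10.6% lower). In mature leaves 1 of 5 was lower than the B parent (10.7%, 6.49% lower) and 1 of 5 lower than the R parent (6.84%, 4.9% lower), ACA8 in both. In mature roots 1 of 5 was higher than the B parent (34.3%, 18.0% higher). Against the R parent 1 of 5 was higher and 1 lower (39.8%, 22.1% higher and 17.7% lower). In flag leaves 0 of 4 differed from the B parent (11.9%) and 0 of 4 from the R parent (10.7%), with 1 in each at an unadjusted p under 0.05 in limma. These comparisons share their arrays and are not independent of each other.

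Against the mid-parent, CAX1a (2.58 ± 0.32, bound 2.21; limma, adjusted p = 4.75e-08), CAX2 (1.6 ± 0.23, bound 1.43; adjusted p = 1.05e-06) and CAX3 (0.40 ± 0.14; adjusted p = 0.0224) were higher in young leaves of the hybrid, where 46.9% of probe sets were called, 34.4% higher. The CAX3 call ends after quantile normalization (0.18, adjusted p = 0.338), with the spike-in covariate (adjusted p = 0.0642), with array weights (adjusted p = 0.0548) or without hybrid array 1, hybrid array 2 or B parent array 2 (adjusted p up to 0.162). With the mid-parent taken on the linear scale CAX1a was higher by 1.22 (adjusted p = 0.00586). In young roots CAX1a (-1.16 ± 0.32, bound -0.91; adjusted p = 0.00741), CAX2 (-0.77 ± 0.23; adjusted p = 0.0166) and ACA8 (-0.57 ± 0.17; adjusted p = 0.0134) were lower in the hybrid by limma, where 20.3% were called, 8.91% lower. Each of these calls is lost on leaving out 1 hybrid array: CAX1a gave -0.84 without array 3 (adjusted p = 0.105), CAX2 -0.79 without array 2 (adjusted p = 0.0532) and -0.72 without array 3 (adjusted p = 0.0666), and ACA8 -0.55 without array 1 (adjusted p = 0.0564). The leaf marker mean of young roots was 12.03 ± 0.28 in the hybrid, 10.60 ± 0.57 for the B parent and 10.38 ± 0.24 for the R parent. The root marker mean was 7.48 ± 0.14 in the hybrid, 8.80 ± 0.09 for the B parent and 7.98 ± 0.07 for the R parent. The part of this shift in the young root results was not tested.

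In mature leaves ACA8 alone was below the mid-parent (-0.92 ± 0.17; limma, adjusted p = 0.000564), where 4.88% of probe sets were called, 3.42% lower. In mature roots 0 of 5 were called (23.0% of probe sets; 0 at an unadjusted p under 0.05 in limma). In flag leaves 1 of 4 was higher, CAX3 (0.43 ± 0.14; limma, adjusted p = 0.0494), where 10.1% were called, 7.69% higher. Its flag leaf arrays read 7.64, 7.40 and 7.95 in the B parent, 8.41, 8.0 and 8.05 in the hybrid, and 7.84, 7.53 and 7.95 in the R parent. The hybrid arrays lay just above all parent arrays, and the call is lost after quantile normalization (0.34, adjusted p = 0.135). It is also lost with array weights (adjusted p = 0.0563), the 3' index covariate (adjusted p = 0.0872) or a linear mid-parent (adjusted p = 0.0568). Leaving out single arrays ended it in 6 of 9 limma fits (adjusted p up to 0.437).

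With age, 3 of 4 genes tested were lower and 1 higher in mature than in young leaves (65.7% of probe sets called, 33.4% higher and 32.3% lower), and 2 of 4 were lower in flag than in mature leaves (64.2%, 31.0% lower), with CAX1b called there but near background on both sides. In mature against young roots 3 of 5 were lower (77.1%, 45.9% lower). The genotype differences themselves changed with age. R minus B differed between mature and young leaves for 3 of 5 genes, 2 upward and 1 downward (37.1% of probe sets, 25.4% up and 11.7% down). Between mature and young roots it differed for 2 of 5, 1 each way (47.7%, 20.9% up and 26.8% down). Hybrid minus mid-parent differed between the leaf ages for 3 of 4 genes, all downward (36.5%, 28.1% down), and between the root ages for 2 of 5, both upward (21.3%, 11.1% up).

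The background split into higher and lower calls depended on scaling. Of the probe sets called in young leaves, the share called higher went from 37.4% to 48.7% under quantile normalization for R minus B. It went from 66.2% to 54.5% for hybrid minus B, from 71.4% to 54.4% for hybrid minus R and from 73.4% to 57.0% for hybrid minus mid-parent. For young leaf minus young root it went from 34.5% to 45.4%, and the median of all probe sets went from -0.41 to -0.10. In mature leaves it went from 28.4% to 45.1% for hybrid minus R and from 29.9% to 47.5% for hybrid minus mid-parent. In flag leaves the hybrid minus mid-parent share went from 75.9% to 63.9%. For the leaf age differences of R minus B and of hybrid minus mid-parent the shares went from 68.3% to 52.9% and from 22.8% to 43.4%.

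Over the 15 group means CAX2 and CAX3 followed each other with a Pearson correlation of 0.84, and ACA8 followed CAX2 at 0.64 and CAX3 at 0.58. CAX1a ran against them, at -0.75 with CAX2, -0.73 with CAX3 and -0.77 with ACA8, and CAX1b was between -0.10 and -0.02 with all 4. Since CAX1b was near background outside young leaves of the hybrid, its values cannot show whether it follows the others. The points share arrays and mix leaf and root groups, so the correlations are a description.

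Other genes of calcium transport also split between leaf and root, as did most probe sets on the array. At 14 days 81.3% of all probe sets were called, 28.1% higher in leaves and 53.2% lower. At 40 to 60 days 86.4% were called, 35.2% higher and 51.3% lower. Of 5 other calcium pump genes matched, 4 had a probe set and 3 were tested. ACA10 was lower in leaves at both ages (-1.64 ± 0.10 young, -1.37 ± 0.10 mature). ACA7 was lower in leaves by at least 0.61 at 14 days and at least 5.09 at 40 to 60 days, and ACA5 was higher in young leaves by 0.61 ± 0.15 but lower in mature leaves (-1.0 ± 0.15).

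Among the other exchangers, NCL1, named as a sodium/calcium exchanger-like gene, was lower in leaves by 2.12 ± 0.23 at 14 days and at least 6.67 at 40 to 60 days. MHX1, named for magnesium/proton exchange, was higher in leaves by 0.62 ± 0.14 and 2.36 ± 0.14. Both tested channel genes were higher in leaves at both ages: the glutamate receptor-like GLR3.1 by 3.91 ± 0.09 and 5.85 ± 0.09, and the cation channel TPC1 by 2.14 ± 0.14 and 1.72 ± 0.14. VATP-P1, the vacuolar proton pump gene matched, was lower in leaves by 1.18 ± 0.09 and 0.82 ± 0.09. All these passed limma's adjusted threshold, as did most probe sets on the array. Of all probe sets 28.1% were called higher in leaves at 14 days and 35.2% at 40 to 60 days.

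Of 39 calcium sensor genes matched, 34 had a probe set and 31 were tested. In young leaf minus young root 4 were higher, 13 lower, 12 not called and 2 without an order, beside 28.1% of all probe sets called higher and 53.2% lower. Their median was -0.52, against -0.41 over all probe sets. In mature leaf minus mature root 8 were higher, 18 lower, 2 not called and 3 without an order, beside 35.2% and 51.3% of all probe sets. Their median was -1.30, against -0.35. CML1 was higher in leaves at both ages (5.17 and 5.22), and CBL4 was higher in mature leaves by at least 3.09. CML14 and CBL2 were lower in young leaves by at least 3.43 and 2.25. CML15 was higher in young leaves (1.09 ± 0.33) but lower in mature leaves by at least 6.74, beside CML31 at 6.85.

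**Figure D3:**
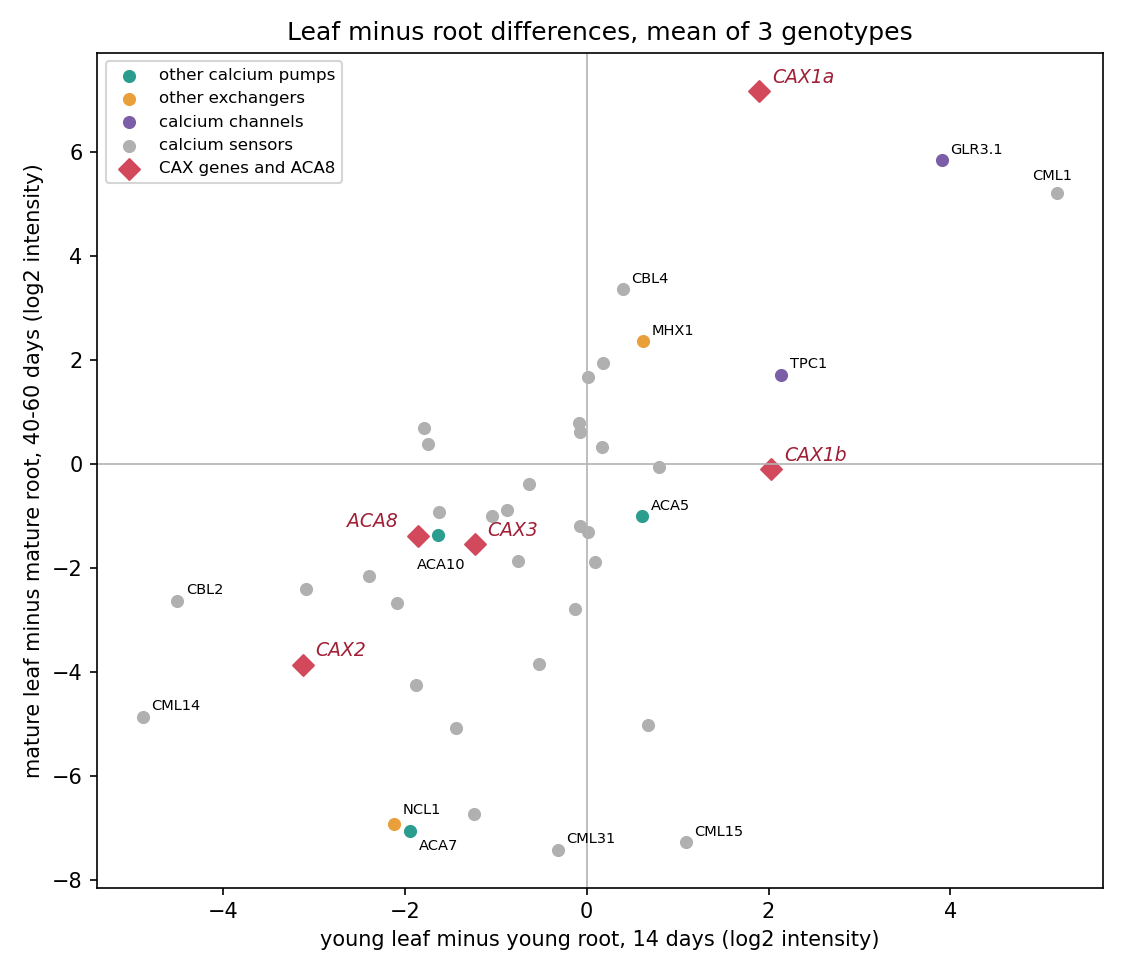
Leaf minus root difference in log2 intensity, averaged over the 3 genotypes, at 14 days (horizontal) and at 40 to 60 days (vertical), for the CAX genes and ACA8 (diamonds) and other calcium genes (circles); values are fitted differences, not bounds. CAX1a lies at 1.90 and 7.18 and CAX2 at -3.12 and -3.86, and the young value of CAX1b (2.03) rests on the arrays it was picked on.

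In young leaves 3 of these other exchangers and channels were, like ACA8, higher in the R parent than in the B parent: NCL1 by 2.22 ± 0.40 (limma, adjusted p = 1.89e-05), TPC1 by 1.39 ± 0.24 (limma, adjusted p = 7.5e-06) and GLR3.1 by 0.78 ± 0.16 (limma, adjusted p = 0.00012). MHX1, the remaining gene tested in these lists, was not called (-0.34 ± 0.24; limma, adjusted p = 0.277). Of the 31 calcium sensors tested, 6 were higher in the R parent, 11 lower, 12 not called and 2 without an order. Of all probe sets 17.3% were called higher there and 29.0% lower. With the spike-in covariate, an alternative added after seeing the data, the values were 1.89 for NCL1 (adjusted p = 0.0054), 0.88 for TPC1 (adjusted p = 0.016) and 0.48 for GLR3.1 (adjusted p = 0.0643). These genes were singled out after their values were seen. The 3 other pumps tested showed no call with an order there.

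By Pearson correlation over the 15 group means, among the 96 tested probe sets with a descriptive RefSeq symbol, CAX1a was most like HSFA2D (0.936), SPO11-3 (0.91) and VIPP1 (0.862). CAX2 was most like LPR1 (0.946), BIP1 (0.941) and CRO1 (0.929), and CAX3 most like AT9 (0.958), GA20OX3 (0.945) and CPK7 (0.926). ACA8 had weaker matches, OsSPO11B (0.745), CPK24 (0.724) and 60SP0 (0.72), as had CAX1b, with HIRL1 (0.759), FEN1B (0.4) and TOP6B (0.381). CAX1b was over background only in young leaves of the hybrid, by which it was picked, and its other group means carry no order. OsSPO11B was near background, at 2.35 to 3.86, in young leaves, mature leaves and mature roots of both parents.

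A wider search, added after the annotation was seen, took in genes named by synonym. It gave SPL9 (0.963) for CAX1a, ORC5 (0.988) and CML14 (0.973) for CAX2, the catalase gene CAT-B (0.982) for CAX3 and GPI-A (0.934) for ACA8. For CAX1b it gave OsP5CS2 (0.885), a gene of proline synthesis. OsP5CS2 was at 9.14 in young leaves of the hybrid and at 2.50 to 3.29 in all other groups. That correlation therefore rests on the 1 group in which CAX1b was over background and by which it was picked.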

How the data were processed

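The deposited table holds linear intensity values, made by the authors with GCRMA per the submitters' processing notes, which give no version. They were converted to log2 (deposited values under 1 set to 1) with no further normalization. Of 57381 probe sets, 187 are controls, and 24130 others reached a group mean of 5 in log2 somewhere and were tested. Groups come from the labels. Group means over 45 arrays were fitted with limma 3.58.1 in R 4.3.3 (30 residual degrees of freedom, two-sided), with Benjamini-Hochberg adjustment for each comparison and a threshold of 0.05. The fitting was tested on simulated data. Figures were drawn with matplotlib 3.10.9. The number of arrays limits the precision.

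Members and lists were chosen with earlier results of these data known. The naming rule took all members, the 3 genes most correlated with each, and up to 2 genes per direction of each list in both leaf minus root comparisons. A gene's probe set was that with the highest mean among those of exactly 1 gene. Probe sets were named through the array annotation and RefSeq symbols.

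Alternatives were array weights, quantile normalization, all probe sets without a level filter, a fit on the compared stages, a replicate block, spike-ins or 3' index as a covariate, a linear mid-parent, other probe sets and each array left out. CAX1c and CAX4 were not analysed here, and no sequence was used.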

Additional observations from a re-analysis of the deposited data

Results flagged for a closer look

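The genotype differences of 3 genes differed between ages by limma's test of the difference itself, over the 24130 probe sets. The change in R minus B from young to mature leaves was 4.40 ± 0.52 for CAX1a (adjusted p = 2.92e-08), 1.41 ± 0.38 for CAX2 (adjusted p = 0.00366) and -2.83 ± 0.28 for ACA8 (adjusted p = 5.25e-10). R minus B of each was called in young leaves and not in mature leaves. From young to mature roots it was 3.13 ± 0.52 for CAX1a (adjusted p = 7.18e-06) and -1.13 ± 0.28 for ACA8 (adjusted p = 0.00104). With the 3' index covariate those became 1.76 (adjusted p = 0.0977) and -0.22 (adjusted p = 0.736).

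Hybrid minus mid-parent changed from young to mature leaves by -1.90 ± 0.45 for CAX1a (adjusted p = 0.00117), -2.22 ± 0.33 for CAX2 (adjusted p = 4.36e-06) and -0.71 ± 0.24 for ACA8 (adjusted p = 0.019). The ACA8 value was -0.29 after quantile normalization (adjusted p = 0.408) and -0.04 with a linear mid-parent (adjusted p = 0.945), and the CAX1a value -0.53 with a linear mid-parent (adjusted p = 0.432). In roots it changed by 1.39 ± 0.45 for CAX1a (adjusted p = 0.0233) and 0.84 ± 0.24 for ACA8 (adjusted p = 0.0102). For CAX1a this became 1.07 without young root hybrid array 3 (adjusted p = 0.11), 1.16 without mature root hybrid array 3 (adjusted p = 0.0861) and 0.43 with a linear mid-parent (adjusted p = 0.582). For ACA8 it became 0.46 when spike-in signal was a covariate (adjusted p = 0.246) and 0.50 with the 3' index covariate (adjusted p = 0.154). Group means near background enter the CAX1a and CAX2 values.

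In 2 contrasts the genotypes moved in opposite directions on every array. Young leaf minus young root of CAX1a was 3.29 in the B parent, 4.39 in the hybrid and -1.99 in the R parent, and the difference between genotypes was not tested. Mature minus young leaf of ACA8 was 1.02 in the B parent, -1.11 in the hybrid and -1.81 in the R parent. The difference between the parents there is the tested -2.83 above, and that between the hybrid and each parent was not tested.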

How the results depend on the processing

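Of 57 called differences of these genes, 33 passed under every alternative run and 24 were lost under at least 1. In 1 of these the direction turned: mature root hybrid minus R parent of ACA8 was -0.03 with the 3' index covariate. Without counting that one, the 3' index and spike-in covariates each took 10 calls, quantile normalization 7, no level filter 5, the compared stages alone 5, array weights 4 and the linear mid-parent 4. Calls with 1 array left out in turn were 16 to 18 in tissue and age comparisons (17 with all arrays), 6 to 8 for R minus B (8), 12 to 17 for the hybrid against each parent (14) and 9 to 11 for differences between ages (10). Quantile normalization moved the median of all probe sets from -0.35 to -0.18 in mature leaf minus mature root and from 0.20 to 0.03 in young leaf hybrid minus R parent. The replicate numbers do not pair the arrays, with mean residual correlations by stage from -0.114 to 0.0495. With the replicate number as a block there were 8 calls for R minus B, 15 for the hybrid against each parent and 10 for differences between ages, and 0 of the 57 were lost. The other ACA8 probe set gave no alternative value, since all its group means were under 5. Group means under 5 limit CAX1b in all groups but young leaves of the hybrid, and CAX2 in mature leaves of the hybrid and in leaves of the R parent. They also limit CAX1a in young leaves of the R parent, young roots of the hybrid and mature roots of the B parent.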
